A study of Mus musculus with 107 samples.

Results

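The genes described here encode the proteins of the cytosolic ribosome. They were chosen by name alone, as every gene symbol of the count table made of Rpl or Rps and a number with at most 1 further letter, plus Rplp0, Rplp1, Rplp2 and Rpsa, and they number 81 of 21564 symbols. Of these, 49 carry a large-subunit name and 32 a small-subunit name. Among them are 5 relatives of a ribosomal protein (Rpl3l, Rpl10l, Rpl39l, Rps4l and Rps27l), of which Rps4l is annotated as a transcribed processed pseudogene. Ribosomal proteins with other names, such as Rack1 and Fau, fall outside the rule. Expression was measured in 107 single mouse eggs by Smart-seq2, a method that copies polyadenylated RNA of 1 cell over its whole length without marking the strand.

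All eggs came from C57BL/6J females aged 2 to 3 months that had received 5 IU of pregnant mare serum gonadotropin 48 h before oocytes were collected. Oocytes were held at the germinal vesicle stage with 2.5 µM milrinone, matured in CZB medium, and taken 38 to 40 h after germinal vesicle breakdown. The wildtype (WT) group held 29 eggs. Eggs of mos -/- females, homozygous for a mutation of the kinase gene Mos whose nature the labels do not state, bore the names M1 (22 eggs), M2 (18 eggs) or M3 (21 eggs), which the labels do not define. The activated group held 17 wildtype eggs that spent 2 h in calcium-free medium with 10 mM strontium chloride, begun 15 to 16 h after germinal vesicle breakdown; strontium starts development without sperm. WT and mutant eggs were sequenced in batches 1 and 2, activated eggs in batch 2 only. In batch 2 the library names put WT eggs on a plate of their own and activated eggs on another, so plate and group cannot be told apart there.

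No label ties an egg to an animal or a culture. The counts of all eggs of a group in a batch were therefore added up, which gave 9 sums for the tests. With 3 residual degrees of freedom, p-values measure how far these sums differ from each other, and that spread may be technical. Sums held 5436993 to 36209306 counts. Eggs of the 3 mutant names lay on common plates, and whether they came from common females is not stated. Levels are CPM (read counts over the library total, on a common scale) adjusted by edgeR's trimmed mean of M values (TMM), and a gene is said to have risen or fallen where edgeR's adjusted p, taken over 13832 genes, was under 0.05. Levels are relative to the total, so a change in the whole amount of mRNA per egg is not seen. Because Smart-seq2 copies polyadenylated RNA, fewer molecules of a gene and shorter poly(A) tails cannot be told apart. Mos itself stood at 7.32 CPM in the WT sum of batch 1 and at 0.892 to 5.47 in the mutant sums of that batch. In batch 2 it stood at 36.8 in the WT sum, 3.40 to 12.5 in the mutant sums and 4.92 in the activated sum. The WT sum was thus above the mutant sums within each batch, though the mutant and WT ranges overlapped across batches. Of the oocyte markers listed (Zp3, Gdf9, Nlrp5 and others), all had reads in every sum, whereas granulosa and cumulus cell markers together took 0.00950% to 0.0337% of counts.

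As background, each cytosolic ribosome is built from ribosomal RNA and 1 copy of most of these proteins, which growing cells make in matched amounts. Their mRNAs are among the most abundant in growing cells and are known for a short pyrimidine-rich start, the terminal oligopyrimidine (TOP) tract, through which mTOR signalling and the protein Larp1 set their translation. Fully grown mouse oocytes store ribosomes and mRNAs for the early embryo, and many mRNAs for ribosomal proteins lose their poly(A) tail and are degraded as eggs mature.

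The annotated transcript starts are shown first, because the TOP tract is the sequence feature this gene family is best known for. RefSeq promoter sequences on GRCm38.p6 were found for 60 of the 81 genes. Each line gives 10 bases before the annotated start and 20 from it onward, read 5′ to 3′ on the gene's strand. Capitals mark a run that begins with C and goes on with at least 4 further C or T bases, at the start or within 5 bases of it. The first 6 genes have such a run and the last 3 do not.
Rps6 (chr4:86857348-86857377, minus strand): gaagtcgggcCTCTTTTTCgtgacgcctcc
Rplp2 (chr7:141447641-141447670, plus strand): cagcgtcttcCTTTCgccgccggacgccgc
Rps15a (chr7:118116128-118116157, minus strand): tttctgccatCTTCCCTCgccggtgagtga
Rpl38 (chr11:114668570-114668599, plus strand): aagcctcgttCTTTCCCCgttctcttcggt
Rpl7a (chr2:26910797-26910826, plus strand): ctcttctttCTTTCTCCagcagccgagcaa
Rps27l (chr9:66946076-66946105, plus strand): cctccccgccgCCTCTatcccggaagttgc
Rplp0 (chr5:115559457-115559486, plus strand): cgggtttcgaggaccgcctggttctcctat
Rpl41 (chr10:128549149-128549178, minus strand): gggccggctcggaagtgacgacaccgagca
Rpl4 (chr9:64173377-64173406, plus strand): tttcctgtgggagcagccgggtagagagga

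Searched on the gene's strand only, 12 of the 60 genes (20%) had the run exactly at the annotated start, against 2.51% of 32851 RefSeq promoters. Within 5 bases of the start it was found in 27 of 60 (45%), against 18.3% of all promoters, 21.7% of 69 mitochondrial ribosomal protein genes, 23.3% of 30 translation initiation factor genes and 21.9% of 32 proteasome genes. The longest runs at a start were those of Rpl15 (13 bases) and Rpl35 (11 bases). The sequence TATAAA, searched on the gene's strand 45 to 16 bases before the start, was in none of the 60 and in 2.14% of all promoters. A match describes letters at an annotated start, and annotated starts can be displaced by some bases. The median fitted log2 fold between mutant and WT eggs was -0.25 for the 27 genes with a run within 5 bases and 0.39 for the 31 tested genes without. The difference was not tested. Over all 79 tested ribosomal protein genes the quartiles were -0.51 and 1.12, and the median over all 13832 genes was 0.06.

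Ribosomal protein genes took a small share of the eggs' counts. All 81 together held 0.0511% of counts in the WT sum of batch 1 and 0.0804% in that of batch 2. The M1 sums held 0.0767% and 0.0894%, the M2 sums 0.0442% and 0.0825%, the M3 sums 0.0439% and 0.0724%, and the activated sum 0.0996%. The share was thus higher in batch 2 than in batch 1 in each of the 4 groups sequenced in both, and the activated sum was the highest of the 9. Genes for mitochondrial ribosomal proteins, 78 in number, held 0.154% to 0.224% in every sum, more than the cytosolic set in each. Translation initiation factors (38 genes) held 0.523% to 0.656%, and proteasome subunits (39 genes) 0.235% to 0.368%. Counts in large-subunit genes exceeded those in small-subunit genes 1.39-fold to 2.49-fold, lowest in the WT sum of batch 2.

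Among single eggs the share ranged more widely than among sums. Over the 104 eggs of at least 10000 counts it ran from 0.00982% to 0.298%, with a median of 0.0761%. WT eggs of batch 2 spread from 0.00982% to 0.166% around a median of 0.0747% (24 eggs), and activated eggs from 0.0651% to 0.199% around 0.0922% (17 eggs). Of these WT eggs, 9 held over 35% of their counts in 50 genes; their median ribosomal protein share was 0.0291% (0.00982% to 0.0523%), against 0.0968% (0.0320% to 0.166%) in the other 15. With each egg thinned to 60000 counts, a median of 16.5 of the 81 genes had a count in WT eggs of batch 2. The median was 21.5 in M1, 19.5 in M2, 22 in M3 and 24 in activated eggs of that batch, with ranges that overlapped. Of the WT eggs of batch 2, the 9 with concentrated counts had a median of 9 and the other 15 a median of 20. In batch 1 the medians were 16 in WT, 23 in M1, 19 in M2 and 14 in M3.

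**Figure D1:**
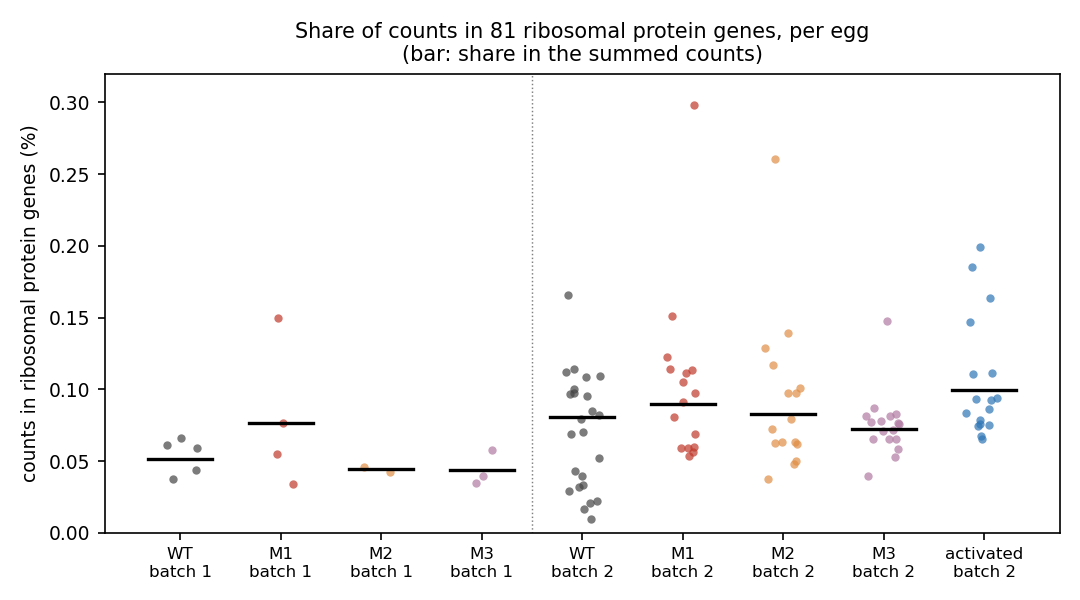
Share of each egg's counts (percent, linear axis from 0) held by the 81 cytosolic ribosomal protein genes, 1 point per egg, by group and batch, with black bars for the share in the summed counts. Egg 6 of M1 in batch 1 stands at 0.150%, and the highest eggs of batch 2 are M1 egg 22 at 0.298% and M2 egg 14 at 0.260%.

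Several eggs stood apart. M1 egg 6 of batch 1 had the highest raw CPM of the 14 eggs of its batch for 53 of the 81 genes, whereas no other egg of the batch did so for more than 9. It held 79 of the 81 genes with a read. Its granulosa marker share was 0.0595%, against 0.0134% to 0.0377% in the other 13, with reads for 6 of 17 markers. Serpine2, which oocytes also express, made up most of it at 547 raw CPM (115.1 to 349 in the others), and Cyp19a1, the aromatase of granulosa cells, stood at 39.5 raw CPM (2.51 to 21.4 in the others). Inha, Inhba, Kitl and Cyp11a1 also had reads. All other markers of the list, Fshr, Amh, Foxl2, Ptx3 and Tnfaip6 among them, were at 0 in this egg. The part of granulosa or cumulus cells in its ribosomal protein level was not tested. M1 egg 22 of batch 2 held 59 of the 81 genes at a total of 180295 counts, with 0.0183% in granulosa markers. M2 egg 14 held only 15 of them, and 4 genes (Rpl4, Rpl17, Rps2 and Rplp2) took 61.8% of its ribosomal protein counts. This egg held 0.0185% in granulosa markers. Its shares in blood markers (0.0199%) and in markers of theca, stroma and endothelium (0.0310%) were the highest of the 104 eggs. The part of such cells in its values was not tested.

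The genes were far from equal in level. Because longer transcripts give more Smart-seq2 reads, levels of different genes were compared as CPM per kb of annotated transcript. The median over the 79 genes tested was 4.28 CPM per kb, with quartiles at 2.01 and 11.1, and the range ran from 0.244 to 142.7. Large-subunit genes (median 4.52) and small-subunit genes (4.24) covered much the same range. On the same scale the median was 6.41 for 76 mitochondrial ribosomal protein genes, 17.4 for 38 initiation factors and 23.5 for 35 proteasome genes. The order of the genes was alike in the sums, with a Spearman rho of 0.86 between the WT sums and of 0.73 to 0.95 between any pair of sums (79 genes, which share libraries).

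The highest level per kb belonged to Rps27l, a relative of Rps27 known as a p53 target, at 142.7 CPM per kb. Its CPM were 64.7 and 141.5 in the WT sums of batches 1 and 2, 67 and 67.1 in M1, 49.4 and 72.1 in M2, 43.9 and 74.5 in M3, and 60.6 in the activated sum. The WT sum of batch 2 was the highest, and the mutant values lay on both sides of the WT sum of batch 1. Rpl41, which encodes a very short and basic large-subunit protein, followed at 69.9 CPM per kb, then Rplp0, the core of the ribosomal stalk, at 50.5, Rpl17 at 35.1 and Rpl4 at 31.3. Over the 9 sums the levels of each pair of neighbours in this order overlapped, and Rpl17 alone ran from 1.72 to 62.5 CPM. Together, the 5 genes with most counts (Rplp0, Rps27l, Rpl15, Rpl4 and Rpl41) held 37.8% of all counts in ribosomal protein genes. Per kb of coding sequence in place of the transcript, Rpl41 (407.3) and Rps27l (282.5) exchanged places, and Rplp2, Rplp0 and Rpl22 came next.

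At the other end, 7 tested genes lay under 1 CPM per kb. Rpsa, which encodes a small-subunit protein also known as the laminin receptor precursor, had the lowest level at 0.244 CPM per kb, with 0.248 and 0 CPM in the WT sums. Rpl12 (0.318), Rpl9 (0.498), Rps20 (0.523) and Rps27 (0.654) followed. Rps20 left the lowest 5 per kb of coding sequence (5.43), since its annotated transcript is 3706 bases long, and Rpl36 took its place. Rps15a likewise has a long annotated transcript of 5179 bases, so its 2.87 CPM per kb compares with 38.2 per kb of coding sequence. Rps27, the usual small-subunit protein, thus stood far below its relative Rps27l in these counts, though 98.6% of its 50-base stretches occur in other genes. Rpl24 and Rpl3l, the latter the relative of Rpl3 used in muscle, failed the filter on low counts with 7 and 4 counts in all 107 eggs.

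**Figure D2:**
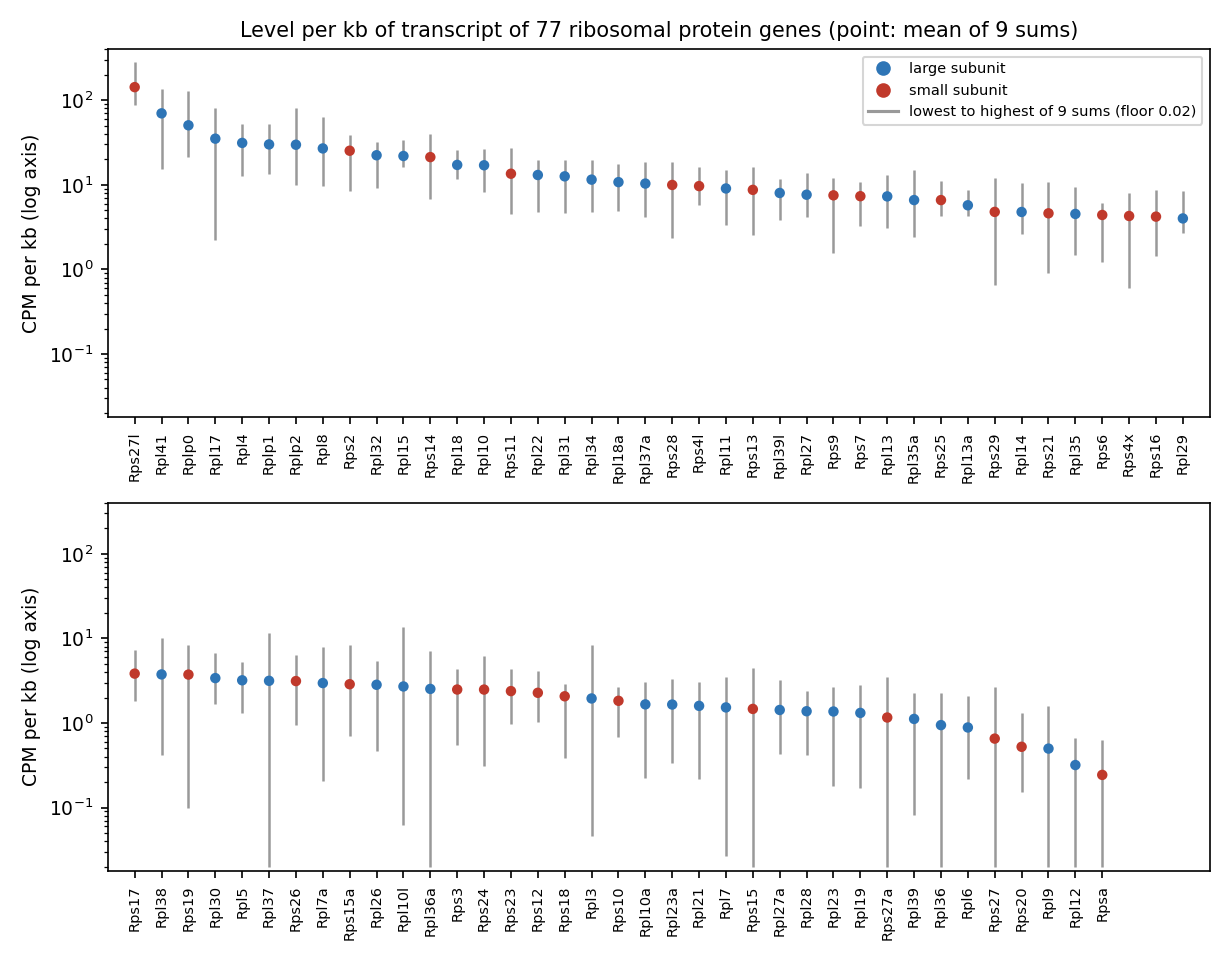
Mean level of 77 of the tested genes over the 9 sums, in CPM per kb of transcript on a log axis, ordered from Rps27l (142.7) to Rpsa (0.244). Grey lines run from the lowest to the highest sum and reach the bottom of the axis where a sum held no count.

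These low levels have to be read beside the sequence these genes share with others. Of the 50-base stretches in the transcript of the median ribosomal protein gene, 53.1% also occur, on either strand, in another annotated gene. The values were 2.62% for mitochondrial ribosomal proteins, 3.34% for initiation factors and 0.644% for proteasome genes. The sharing genes include pseudogene copies and also neighbours that overlap a gene, such as Trappc4 and Ccdc84 for Rps25. The count table names only 3 ribosomal protein pseudogenes with the suffix -ps, with at most 10 counts in a sum. The sources used here do not give whether reads that fit several copies were dropped, and the levels of genes with many copies are therefore uncertain. The 44 genes with over 50% of such stretches shared had a median of 3.92 CPM per kb, and the 35 others 4.77. The part of shared sequence in these levels was not tested. Across the 79 genes, level and shared share had a Spearman rho of -0.20, as a description. In addition, exons of 37 genes overlap another annotated gene, and 29 genes host a snoRNA gene in the annotation, whose reads could have been counted with either.

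**Figure D3:**
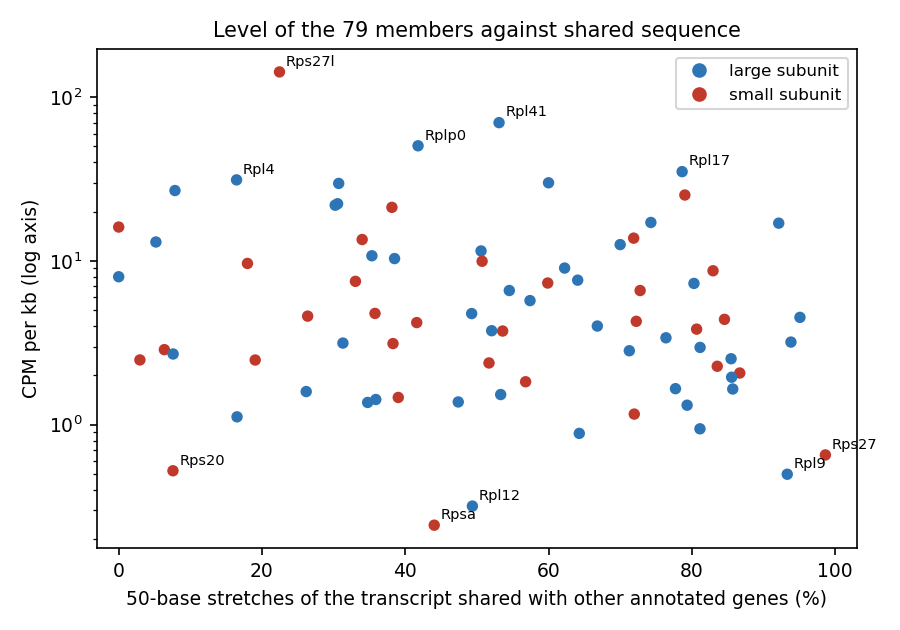
Level of the 79 tested genes (CPM per kb, log axis) against the percentage of 50-base stretches of their transcript that occur in other annotated genes. Among the lowest genes, Rpsa lies at 44% and Rps27 at 98.6% of shared stretches.

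The comparison of mutant with WT eggs asks what differs in eggs of mos -/- females. The Mos kinase keeps eggs arrested at metaphase of the second meiotic division, and how far the mutation removes it is not stated. Of the 79 tested genes, 2 rose (Rpl41 and Rplp1) and 4 fell (Rplp0, Rplp2 and Rps15a among them) in the mean of M1, M2 and M3 against WT. Among all 13832 genes, 5.36% rose and 4.03% fell, so neither count was far from the background. The median fitted log2 fold was 0.30 over the 79 genes and 0.06 over all genes, but 0.04 against 0.18 without the WT sum of batch 1. The 2 lists of large-subunit and small-subunit genes had 2 higher and 2 lower of 47, and 0 higher and 2 lower of 32. The 3 proteins of the stalk, the flexible arm of the large subunit that recruits elongation factors, went in different directions.

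Rplp0, the stalk's base, stood at 88.9 and 104 CPM in the WT sums of batches 1 and 2. Its mutant values were 40.3 and 72.1 in M1, 29.0 and 36.7 in M2, and 35.7 and 37.7 in M3. All 6 mutant sums were below both WT sums. The log2 fold was -1.26 ± 0.21 (SE), with an edgeR adjusted p of 0.00101. In batch 1, the 5 WT eggs ran from 60.6 to 122 raw CPM and the 9 mutant eggs from 15.5 to 65; in batch 2 the ranges overlapped widely, with medians of 64.4 in 24 WT and 35.5 in 49 mutant eggs. The fall was called with each sum left out in turn, at -1.44 to -1.16.

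Rplp2, which forms dimers with Rplp1 on that base, stood at 21.5 and 78.9 CPM in the WT sums, 20.9 and 27.8 in M1, 16.4 and 33.1 in M2, and 9.51 and 23.4 in M3. The WT sum was the highest of its batch in both, but only barely in batch 1. Its log2 fold was -1.04 ± 0.28 (edgeR adjusted p = 0.0257). Without the WT sum of batch 2 it was -0.52 (edgeR adjusted p = 0.532), and without the M1 sum of batch 2 it was -0.94 (edgeR adjusted p = 0.0548).

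Rplp1 went the other way, from 6.61 and 8.98 CPM in the WT sums to 22.9 and 22.9 in M1, 9.11 and 16.3 in M2, and 13.4 and 26.4 in M3. All 6 mutant sums lay above both WT sums. Its log2 fold was 1.18 ± 0.36 (edgeR adjusted p = 0.0446). The fold stayed between 1.03 and 1.27 with each sum left out, but the call was lost without any of 7 of the 9 sums, with edgeR adjusted p of 0.0637 to 0.198; only the sums of M3 in batch 1 and of activated eggs could be left out. At 60000 counts per egg of batch 2, Rplp1 had a count in 5 of 24 WT, 11 of 16 M1, 5 of 16 M2 and 13 of 17 M3 eggs.

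Rpl41 rose from 12.9 and 6.63 CPM in the WT sums to 59.4 and 45.4 in M1, 18.7 and 39 in M2, and 17.0 and 36.4 in M3. All mutant sums were above both WT sums, and M1 was the highest in each batch. The log2 fold was 1.69 ± 0.40 (edgeR adjusted p = 0.0169). It was 1.46 without the M1 sum of batch 1 (edgeR adjusted p = 0.0878) and 1.09 without the WT sum of batch 2 (edgeR adjusted p = 0.166). In batch 2 the median WT egg had no read of Rpl41, with 8 of 24 eggs holding any, against 45 of 49 mutant eggs. At 60000 counts per egg, the numbers with a count were 6 of 24 WT, 13 of 16 M1, 9 of 16 M2 and 16 of 17 M3 eggs.

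Rps15a, a small-subunit protein, was highest in the WT sum of batch 2. It stood at 8.78 and 43.8 CPM in the WT sums, and at 6.63 and 14.4, 3.63 and 22.2, and 4.48 and 14.4 in M1, M2 and M3. The WT sum was the highest in each batch, but WT of batch 1 lay below the mutant sums of batch 2. Its log2 fold was -1.11 ± 0.33 (edgeR adjusted p = 0.0420), and -0.84 without the WT sum of batch 2 (edgeR adjusted p = 0.402). Leaving out 1 of 3 mutant sums (M1 or M3 of batch 2, or M2 of batch 1) also ended the call, at folds of -1.11 to -1.02 with edgeR adjusted p of 0.0652 to 0.0895, as did leaving out the WT sum of batch 1 (-1.37, edgeR adjusted p = 0.0651).

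**Figure D4:**
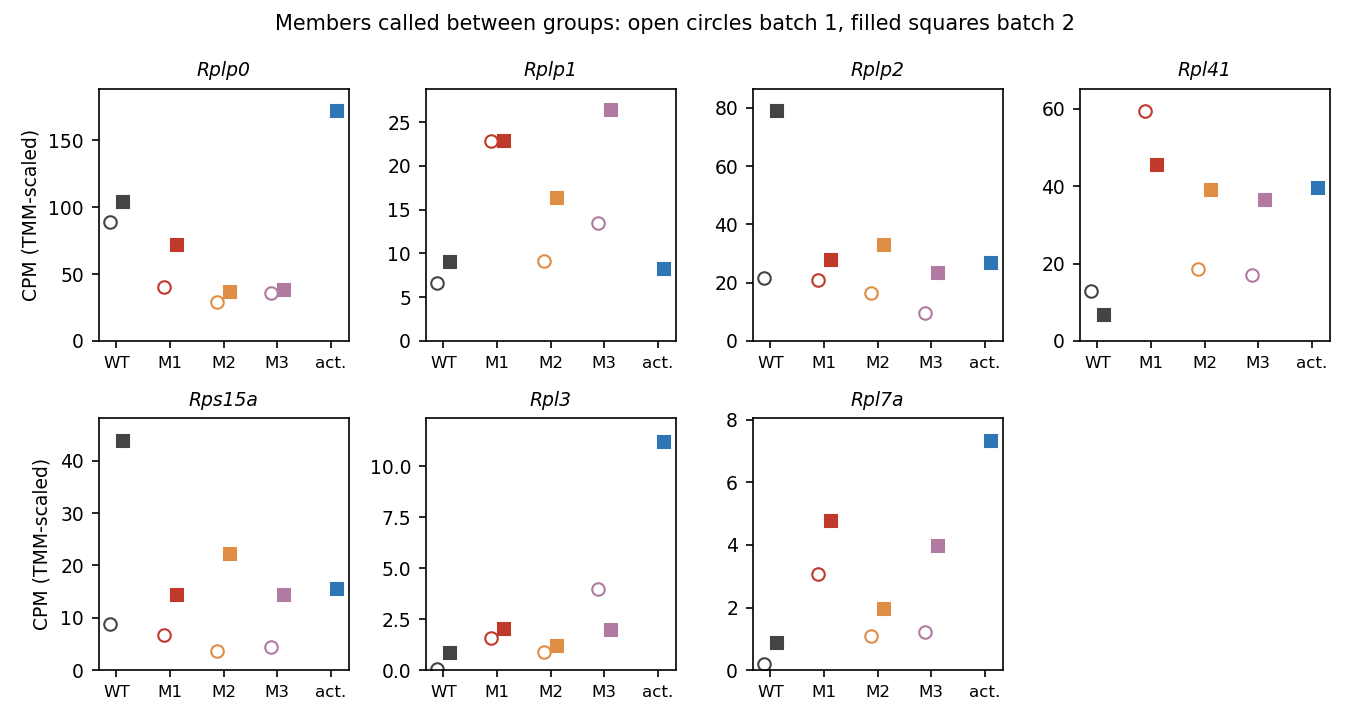
CPM of 7 genes that passed the test between WT and mutant or activated eggs (linear axes from 0), 1 point per group and batch. Rplp0 lies between 29.0 and 72.1 in the 6 mutant sums and at 88.9 or more in WT and activated sums, whereas Rps15a reaches 43.8 in the WT sum of batch 2 alone.

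Without regard to the test, 8 genes had all 6 mutant sums above both WT sums (Rplp1, Rpl28, Rps3, Rpl9, Rpl23a, Rpl3, Rpl7a and Rpl41) and 4 had all 6 below (Rplp0, Rpl13, Rps16 and Rps10). That is the case for 10.2% and 6.86% of all genes, so 8 and 4 of 79 are no more than the background. Rpl9 had 34 counts in mutant eggs and 0 in 41646299 WT counts, and did not pass the test. With 3 counts set as the floor over the WT group, the pooled counts give a bound of 4.87-fold. The 34 counts came from 5 of 9 mutant eggs of batch 1 and 4 of 49 of batch 2. Of the 50-base stretches of Rpl9, 93.3% occur in other genes. The genes named for their function in signalling or assembly did not pass the test: Rps6, the target of S6 kinase, had a log2 fold of 0.55 ± 0.62, Rpl10, a subunit joined late in assembly, 0.39 ± 0.37, Rps27a, made as a fusion with ubiquitin, 1.51 ± 1.56, and Rpsa 1.37 ± 1.69. Their edgeR adjusted p-values were 0.621 to 0.723. The median standard error of the 79 genes was 0.63, against 0.40 over all genes.

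Each mutant group was also set against WT in the same fit. M1 had 4 genes higher and none lower, of 79, where 5.65% of all genes were called: Rpl41 (2.34 ± 0.46, edgeR adjusted p = 0.00788), Rplp1 (1.59 ± 0.42, 0.0310), Rpl7a (3.29 ± 0.89, 0.0366) and Rps3 (2.29 ± 0.65, 0.0462). M2 had 1 gene lower, Rplp0 at -1.56 ± 0.28 (edgeR adjusted p = 0.00342), where 4.58% of all genes were called. M3 had 2 lower, Rplp0 at -1.39 ± 0.28 (edgeR adjusted p = 0.00600) and Rplp2 at -1.50 ± 0.37 (0.0228), where 5.25% were called. Rplp0 in M1 had a log2 fold of -0.82 ± 0.27 (edgeR adjusted p = 0.0896). The median fold of the 79 genes was 0.91 in M1, 0.14 in M2 and 0.02 in M3, beside 0.05, -0.01 and 0.12 over all genes. These folds share the WT sums. The calls of M1 depended on the M1 sum of batch 1, on that of batch 2 and on the WT sum of batch 1. Without 1 of these, a group rests on a single sum, so the calls left are not counted here. Leaving out 1 M1 sum also lowered the number of all genes called. The M1 median was 0.27 without the M1 sum of batch 1 (-0.02 over all genes) and 1.16 without that of batch 2 (0.01). Without the WT sum of batch 1 it was 0.68 (0.22). The 4 calls became 2 without the activated sum (5.68% of all genes), 0 with sums per plate (1.29%) and 1 without the 9 WT eggs of concentrated counts (3.94%). With 1 sum left out, the M2 median ran from -0.30 to 0.22 (-0.13 to 0.15 over all genes). The M3 median ran from -0.27 to 0.18 (-0.02 to 0.23). Without M1 egg 6 of batch 1, the egg that stood apart above, the M1 median was 0.31, and 4.15% of all genes were called. Rpl7a (2.77, edgeR adjusted p = 0.0886) and Rps3 (1.74, 0.154) were then no longer called, whereas Rpl41 and Rplp1 were.

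Between the mutant groups themselves, with counts added up by plate into 9 sums and plate taken as a block, none of 73 tested genes passed the test for M2 against M1, M3 against M1 or M3 against M2. Of all 11609 genes, edgeR called 0.0%, 0.0517% and 0.0%, and 4, 8 and 1 of the 73 genes had an unadjusted p under 0.05, all of them lower. Those are 5.48%, 11% and 1.37%, beside 6.18%, 7.87% and 2.88% of all genes. DESeq2 called 0, 1 and 0. The lowest p-values were all for M3 against M1. Rps14, a small-subunit protein, stood at 33.9, 22.4 and 14.6 CPM in the M1 sums of plate 1, plate 2 and batch 1, and at 9.03, 7.0 and 4.72 in those of M3. The M3 sums lay below every M1 sum, and the log2 fold was -1.74 ± 0.48 (edgeR adjusted p = 0.498). Rpl5, which carries 5S ribosomal RNA, went from 10.6, 11.6 and 9.35 CPM to 6.64, 2.33 and 2.86 (-1.59 ± 0.50, edgeR adjusted p = 0.554). Rpl38 went from 1.76, 4.44 and 2.24 CPM to 0, 0.778 and 0.158 (-3.70 ± 1.18, edgeR adjusted p = 0.554). In the M1 sum of batch 1, egg 6 held 47.4% of the Rps14 counts, 50.6% of those of Rpl5 and 76.7% of those of Rpl38.

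The mutant fold of batch 2 was set against that of batch 1 by an interaction test on 8 sums. It called 0 of 78 genes, where 0.0% of 13566 genes were called, with 7 genes (8.97%, beside 8.47% of all genes) at an unadjusted p under 0.05, all lower in batch 2, and 1 gene called by DESeq2. The median difference of log2 folds was -0.75 over the 78 genes and 0.11 over all genes. Within batch 1, all 3 mutant sums lay above WT for 28 genes and below for 14; within batch 2 the numbers were 29 and 25. The lowest p belonged to Rpl8, a large-subunit protein at the catalytic centre, with 16.4 CPM in WT and 15.7 to 24.9 in the mutant sums of batch 1 but 53.7 in WT and 8.14 to 17.8 in those of batch 2 (difference -2.46 ± 0.65, edgeR adjusted p = 0.303).

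Activated eggs were set against WT to ask how the transcripts change once eggs leave the arrest by a calcium signal. Of the 79 genes, 2 rose (Rpl3 and Rpl7a) and 1 fell, where 5.66% of all genes rose and 7.33% fell. The median log2 fold was 0.45, against 0.15 over all genes, and 0.23 against 0.23 without the WT sum of batch 1. Within batch 2 alone, 44 of the 79 genes were higher in activated than in WT eggs, and the median log2 ratio was 0.19 against 0.18 over all genes. The activated group is a single sum that was assumed to vary like the others, and its plate and treatment cannot be told apart. Granulosa and cumulus markers took 0.00950% of its counts and 0.0279% of those of WT in batch 2; their part in the results was not tested.

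Rpl3, which lies at the peptidyl transferase centre, stood at 11.2 CPM in the activated sum, with 0.0621 and 0.855 in the WT sums and 0.892 to 3.98 in the mutant sums. The activated sum was above all 8 others. Its fitted log2 fold against WT was 5.07 ± 1.21 (edgeR adjusted p = 0.00908), on 2 and 4 WT counts. The fold was 3.70 without the WT sum of batch 1 (edgeR adjusted p = 0.0460) and 7.44 without that of batch 2 (edgeR adjusted p = 0.00322), and over 20 alternatives the call was lost in 1, with no batch term (edgeR adjusted p = 0.0703). Within batch 2 the ratio was 16.5 (95% exact interval 6.32 to 61.3, counting error only) from 164 and 4 counts. At 60000 counts per egg, Rpl3 had a count in 8 of 17 activated and 0 of 24 WT eggs of that batch, and in 8 of 49 mutant eggs. Of its 50-base stretches, 85.6% occur elsewhere.

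Rpl7a, a large-subunit protein, stood at 7.31 CPM in the activated sum, 0.186 and 0.855 in the WT sums and 1.08 to 4.75 in the mutant sums. Its log2 fold was 3.56 ± 1.01 (edgeR adjusted p = 0.0249). In batch 2 the ratio was 10.8 (95% exact interval 4.08 to 40.2) from 107 and 4 counts, the 4 all from 1 WT egg. Without the M1 sum of batch 1, the M1 sum of batch 2 or the WT sum of batch 1 its folds were 3.43, 3.37 and 3.08, with edgeR adjusted p of 0.0526, 0.0606 and 0.0858. Of its stretches, 81.2% are shared.

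Rpl41 was at 39.5 CPM after activation and missed the threshold (1.78 ± 0.57, edgeR adjusted p = 0.0508), and Rplp1, at 8.26 CPM, lay between the WT sums (-0.19, edgeR adjusted p = 0.874).

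Against the mutant eggs, activated eggs had 1 gene higher and none lower of 79, where 1.42% of all genes were higher and 3.43% lower. At an unadjusted p under 0.05 there were 7, or 8.86%, beside 17.9% of all genes. The gene was Rplp0, at 172 CPM in the activated sum and 29.0 to 72.1 in the mutant sums, with a log2 fold of 1.91 ± 0.28 (edgeR adjusted p = 5.22e-04). It passed the test in all 21 alternatives run, at folds of 1.77 to 2.12. Against WT, where the comparison shares the activated sum, Rplp0 had a fold of 0.65 ± 0.34 (edgeR adjusted p = 0.247), and a ratio within batch 2 of 2.09 (95% exact interval 1.89 to 2.30, counting error only). Activated eggs ran from 53.4 to 450.1 raw CPM with a median of 148.6, WT eggs of batch 2 from 7.73 to 296 with a median of 64.4.

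**Figure D5:**
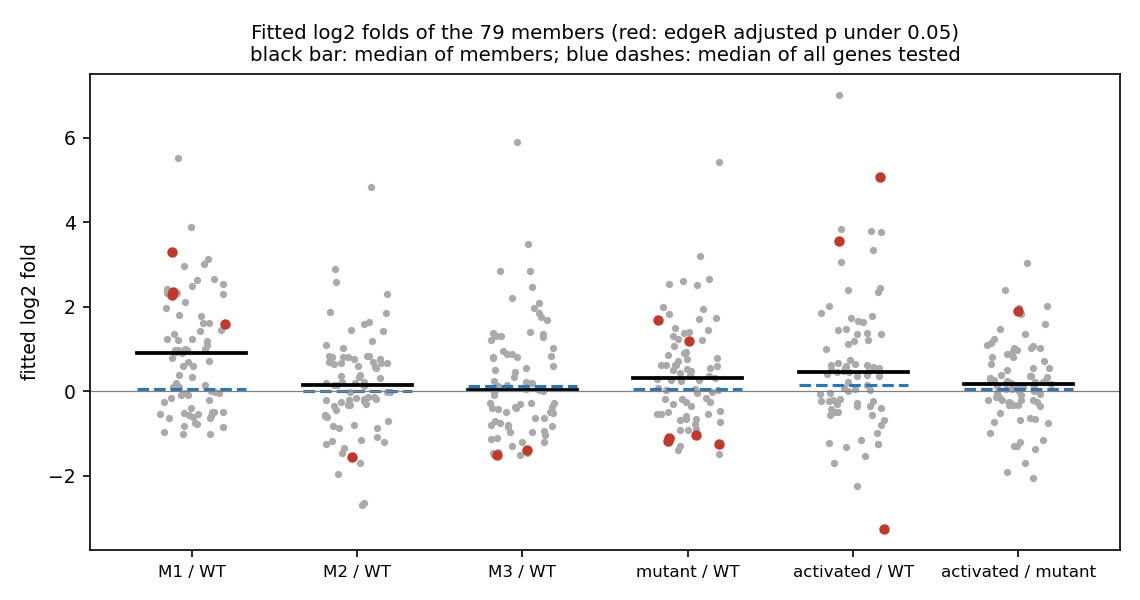
Fitted log2 folds of the 79 tested genes in 6 comparisons, with genes past an edgeR adjusted p of 0.05 in red, the median of the 79 genes as a black bar and that of all genes as blue dashes. The medians of the 79 genes run from 0.02 (M3 against WT) to 0.91 (M1 against WT); comparisons share WT, mutant or activated sums.

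The other genes of the translation pathway are given for comparison, from lists chosen by function. Their counts stand beside the shares over all genes. In mutant against WT eggs 5.36% of all genes rose and 4.03% fell. In activated against WT eggs 5.66% rose and 7.33% fell. In mutant against WT eggs, 1 of 76 mitochondrial ribosomal protein genes rose and 3 fell (median log2 fold 0.01), and of 35 proteasome genes 8 rose and 3 fell (0.41). Among 38 initiation factors, 3 rose and 3 fell (-0.26); Eif4h, which helps to unwind mRNA leaders, rose by 2.60 ± 0.44 (edgeR adjusted p = 0.00108), and Eif2s1, which carries the regulatory phosphorylation site of eIF2, fell by 1.02 (edgeR adjusted p = 0.00738). Among 13 elongation factors and other TOP mRNAs, 1 rose and 1 fell (-0.08). Those were Eef1e1, at 2.78 ± 0.35 (edgeR adjusted p = 1.2e-04), and Btf3, of the nascent chain complex, at -0.92 ± 0.21 (0.0106). Eef1e1 is in the list by its elongation factor name, but its protein is a part of the aminoacyl-tRNA synthetase complex. Of 30 ribosome assembly genes 1 rose and 2 fell (0.15), with Nop56, a snoRNP protein, at -0.70 ± 0.18 (edgeR adjusted p = 0.0217). Of 17 genes that control TOP mRNA translation 2 rose and 2 fell (-0.23), among them the kinase Mtor at -1.09 ± 0.23 (edgeR adjusted p = 0.00590), its inhibitor Tsc2 at 1.01 ± 0.23 (0.00917) and its activator Rheb at -0.91 ± 0.21 (0.0106). Rack1, a ribosomal protein outside the rule on names, stood at 68.5 and 99.8 CPM in the WT sums and 28.2 to 63.0 in the mutant sums (-0.86 ± 0.22, edgeR adjusted p = 0.0189).

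In activated against WT eggs, mitochondrial ribosomal protein genes had 1 higher and 1 lower of 76 (median log2 fold -0.22), proteasome genes 2 and 2 of 35 (0.10), initiation factors 3 and 6 of 38 (-0.03), ribosome assembly genes 1 and 5 of 30 (-0.09), elongation factors and other TOP mRNAs 2 and 1 of 13 (0.32), and control genes of TOP mRNAs 2 and 3 of 17 (0.32). Rack1 fell to 22.3 CPM (-2.14 ± 0.39, edgeR adjusted p = 0.00143). Eef1a1, which brings aminoacyl-tRNA to the ribosome, rose to 105 CPM from 28.6 and 47.7 in the WT sums (1.16 ± 0.34, edgeR adjusted p = 0.0302). The other gene of its list that rose was again Eef1e1 (2.38 ± 0.45, edgeR adjusted p = 0.00168). Nop56 fell to 58.4 CPM from 247 and 221 (-1.96 ± 0.32, edgeR adjusted p = 6.04e-04), and Eif5, the GTPase activator of start codon recognition, to 138.3 CPM from 546 and 529 (-2.04 ± 0.30, edgeR adjusted p = 2.43e-04).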

How the data were processed

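The deposited table held whole-number read counts per gene symbol for each egg. Per the submitters' processing notes, the authors used STAR and HTSeq, and both GRCm38 and mm10 are named as genome builds. Not given in the sources used here: versions, annotation, strand setting and the handling of multi-mapped reads. Groups, batches and plates come from the labels and library names.

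Counts were summed per group and batch, and fitted with edgeR 4.0.16 (R 4.3.3): TMM scaling, expression filter with a minimum count of 10, robust quasi-likelihood tests with group and batch terms, and Benjamini-Hochberg adjustment over all genes tested at a threshold of 0.05. The mutant fold is the mean of M1, M2 and M3 over WT. Mutant groups were compared per plate (11609 genes), and batches by an interaction (13566 genes). A log2 fold over the root of its F statistic gave its standard error. The code was tested on simulated data. Raw CPM is scaled to the egg's total only. Eggs under 10000 counts (3) entered sums but not values per egg. Totals ran from 44 to 9132471 counts per egg, and intervals on count ratios cover counting error only.

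Transcript lengths, positions, overlaps and 50-base stretches came from GENCODE M21, with the RefSeq-linked principal transcript, and promoter windows from RefSeq (GRCm38.p6). Named genes are those called in a comparison, the 5 highest and 5 lowest per kb, Rplp0, Rplp1, Rplp2, Rpsa, Rps6, Rps27a and Rpl10, the 3 of lowest p between mutant groups, those failing the filter, and up to 3 called genes per other list; genes whose WT and mutant sums did not overlap, Rps3, Rpl8, Rpl15, Rpl35 and Rps2 were named after their values were seen. Some genes that met the rule are not reported here. Genes and lists were chosen with earlier results of these data known. Alternatives were DESeq2 1.42.0, voom of limma 3.58.1, RLE or upper quartile scaling, leaving out the filter or each sum, thinning each egg to 60000 counts, and other sums or terms.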

Additional observations from a re-analysis of the deposited data

Results flagged for a closer look

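Within groups of 4 or 5 eggs of batch 1, 43 sets of values for named genes were searched for an egg far from the rest by Dixon's criterion, which chance meets in about 1 of 20 sets of continuous values, and 8 were found. In 7 of the 8 all other eggs were at 0, so that any read in a single egg meets the criterion and that rate does not apply. M1 egg 6 accounted for 4 of them, in raw CPM. It held Rpl3 at 6.17 (0 to 0.730 in the other M1 eggs of batch 1), Rpsa at 2.93, Rpl12 at 1.79 and Rps27 at 0.650, the last 3 at 0 in the other eggs. The rest were single WT eggs with a few reads of a gene that was at 0 in the other 4. These were Rpl12 at 0.471 raw CPM in egg 2, Rps27a at 0.383 in egg 1, Rpl3 at 0.219 in egg 5 and Rps27 at 0.123 in egg 4.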

How the results depend on the processing

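The 6 calls between mutant and WT eggs, where 9.38% of all genes were called, became 10 with no filter (9.85% of all genes), 10 with DESeq2 (13.2%), 3 with the batch 1 eggs whose library names begin with scO_A only (chosen after the data were seen; 3.32%), 1 with sums per plate (3.06%) and 0 with no batch term (0.369%). Leaving out 1 sum gave 2 to 7: 3 without the M1 sum of batch 1 (5.68%), 2 without that of batch 2 (8.54%), 3 without the M3 sum of batch 2 (8.61%) and 3 without the WT sum of batch 2 (5.40%). The 3 calls between activated and WT eggs (13% of all genes) became 7 with no filter (12.5%), 5 with DESeq2 (15.7%), 7 with limma voom (14.3%), 0 with no batch term (1.42%) and 11 when each batch's mutant eggs formed 1 sum (16.0%). Leaving out 1 sum gave 2 to 6, with 5 or 6 without either M2 sum, the M3 sum of batch 2 or either WT sum (10.2% to 15.3%). The single call between activated and mutant eggs (4.84% of all genes) became 2 with RLE scaling, upper quartile scaling, DESeq2 or limma voom (4.77% to 7.50%), 3 with no filter (6.17%) or with that pooling of mutants (5.01%), and 1 to 5 with 1 sum left out, with 5 and 4 without the WT sums of batches 1 and 2 (7.82% and 8.0%). M3 against M1 gave 1 call, Rps14, with DESeq2 and with no filter, and the batch difference 1 with DESeq2. The cause was not tested in any of these. The median fold after activation became 1.04 as a mean over eggs of log2(CPM + 1) in batch 2, beside 0.69 over all genes, and upper quartile scaling shifted the median of all genes from 0.15 to 0.30. The mutant median was 0.04 without the WT sum of batch 1 (0.18 over all genes), 0.17 without M1 egg 6 of batch 1, and 0.60 with the pooled mutants. No fold of a called gene reversed under the alternatives run. Of 22 alternatives, the call between mutant and WT was lost in 1 for Rplp0, 4 for Rpl41, 6 for Rplp2, 9 for Rps15a and 14 for Rplp1. No paired analysis was possible because replicate numbers only name eggs and the sums carry none. Thinning to 60000 counts left 45 of the 81 genes to test, so the low genes are limited by depth.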
